A study of Mus musculus with 2 samples.

Results

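The alarmins and the interleukin-1 (IL-1) family are described here by 9 genes, Tslp, Il33, Il1a, Il1b, Il18, Il1rn, Il1r1, Il1r2 and Il1rl1, of 31053 genes in the deposited count tables. The genes were found by their symbols, and each symbol matched 1 row. The data come from dissociated back skin of mice at postnatal day 53, as 1 control and 1 induced single-cell library prepared on the same chip from littermates. The sources do not state how many mice went into each library. Control and induced mice both carried the K14-H2BGFP reporter, which places green fluorescent protein in the nuclei of Krt14-expressing cells. The induced mice also carried the pTRE2-miR-205 transgene with Krt14-rtTA, so that doxycycline raises miR-205 in Krt14-expressing epithelium and in the cells derived from it. The transgene was made in FVB founders, whereas the labels give the strain as C57BL/6. Feeding with doxycycline chow began at postnatal day 49 and lasted 4 days. The extraction protocol says that both groups received it, but the sample characteristics call the control untreated. Sorted epidermal, follicle and dermal cells were combined at 3:5:2, so the share of each compartment was set by the sort.

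Skin epithelium stores or secretes several cytokines that signal damage to neighbouring cells. IL-33 and IL-1α are released from injured cells and act through the receptors encoded by Il1rl1 and Il1r1, whereas IL-1β and IL-18 are made as precursors that inflammasome proteases cleave. Thymic stromal lymphopoietin, encoded by Tslp, is a keratinocyte cytokine that acts on dendritic cells and lymphocytes. The pathway has its own brakes: Il1rn encodes an antagonist that occupies the IL-1 receptor without signalling, and Il1r2 encodes a decoy receptor that binds IL-1 without signalling.

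In GRCm38.p6 (RefSeq) the receptor genes lie close together on chromosome 1, with Il1r2 at chr1:40084692-40125230, Il1r1 at chr1:40222480-40316201 and Il1rl1 at chr1:40404864-40465418. Il1a (chr2:129299609-129310186) and Il1b (chr2:129364569-129371164) lie close together on chromosome 2, which also holds Il1rn (chr2:24336860-24351491). Il18 is at chr9:50554700-50581841 and Il33 at chr19:29925113-29960718.

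Because miR-205 was the induced agent, its mature sequence and the only 7-base match to its seed among the annotated 3′ UTRs of the 9 genes are shown first. Capitals mark the seed (bases 2 to 8) in miR-205-5p, whose mature sequence lies at chr1:193507503-193507524 on the minus strand of GRCm38.p6 (RefSeq). In the Il1r1 transcript, capitals mark the 7 bases complementary to that seed, at chr1:40372879-40372885 on the plus strand of NCBIM37.
mmu-miR-205-5p: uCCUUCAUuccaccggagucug
Il1r1 3′ UTR: actggtcaataATGAAGGtttttttttat
The Il1r1 match lay in the 3′ UTR, at base 2641 of 2805. The 3′ UTRs of the other 8 genes were 12 to 3246 bases long in that annotation and held no such match, and the 12 bases annotated for Il1r2 leave little to search. Among these 8 genes, a shorter match, to bases 2 to 7 only, was counted 1 time, in the Il33 3′ UTR. The share of all genes with that shorter match was not taken. Across all genes with an annotated 3′ UTR, 10.4% held the 7-base match (2064 of 19915). A match is a stretch of letters, and binding was not measured here.

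The promoters of Il1b and Il33 are shown because these were the members whose level was past the fold (at least 2-fold different) in their leading cluster. The leading cluster has the highest mean level over the 2 libraries, among clusters with at least 30 cells in each. For Il33 that rank came from the induced library alone. The Il1b sequence is chr2:129371165-129371389 on the minus strand and the Il33 sequence is chr19:29924863-29925112 on the plus strand, both in GRCm38.p6 (RefSeq). Both lie upstream of the annotated gene.
Il1b: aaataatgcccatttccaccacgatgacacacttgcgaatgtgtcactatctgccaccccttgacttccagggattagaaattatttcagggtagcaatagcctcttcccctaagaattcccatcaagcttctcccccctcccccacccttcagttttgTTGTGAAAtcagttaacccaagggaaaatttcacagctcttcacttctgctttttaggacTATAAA
Il33: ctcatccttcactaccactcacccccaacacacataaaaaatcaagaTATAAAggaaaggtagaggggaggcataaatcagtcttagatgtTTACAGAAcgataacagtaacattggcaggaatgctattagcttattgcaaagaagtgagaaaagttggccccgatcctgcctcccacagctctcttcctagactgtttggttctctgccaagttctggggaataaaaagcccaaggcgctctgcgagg
Capitals mark TATAAA (the TATA box) and TTNNGNAA (the C/EBP motif), found on either strand within 250 bases before the start. In the printed windows TATAAA began at −31 in Il1b and at −203 in Il33. Il33 has another annotated start, whose window lies inside the gene and is not printed. There TATAAA began at −29, and TTNNGNAA was also present. Which Il33 start was used in these cells was not tested. TATAAA was present in 12.4% of all 32851 promoter windows, and TTNNGNAA in 36.8%. The searched motifs of AP-1 (TGANTCA), NF-kB (1 longer base pattern, not printed here) and PU.1 (GAGGAA) occurred in neither printed window. They were present in 6.75%, 1.21% and 23.3% of all windows.

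The authors' count tables give unique molecular identifiers (UMIs), each standing for 1 captured transcript, and are not scaled for transcript length. The tables held 55465594 UMIs in 4545 control barcodes and 49733560 UMIs in 4264 induced barcodes. The filter kept 3936 control and 3628 induced cells, with medians of 12198.5 and 11752.5 UMIs per cell, and the libraries shared 11 barcodes. Clustering without the listed cytokine and pathway genes gave 25 clusters, of which 17 held at least 30 cells in each library and were compared. A cluster carries a name with the suffix "-like" where markers of that cell type led it, and a number where they did not. Levels are CPM, the UMIs of a gene scaled to the total UMIs of its cluster, with exact 95% Poisson intervals. Ratios are log2 of induced over control CPM, with exact 95% intervals, and were read where the libraries together had 20 UMIs or more of the gene. A ratio of at least 1 in size is called past the fold. Since each group was 1 library, no test was possible, and all intervals cover counting error only, with no spread between mice.

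Each gene had its own place in the skin, as the map of levels by cluster shows for both libraries. Tslp and Il1rn were spread over the epithelium of the epidermis and upper follicle, and Il1rn was highest in the small macrophage or monocyte-like cluster 19. Il33 was in the epidermis and in the sebaceous gland-like cells of cluster 15, and Il1a was highest in cornifying epithelium. Il1b and Il18 were highest in the antigen-presenting cells, Il1r1 in dermal cells, and most Il1rl1 was in 1 cluster of T cell-like cells. Il1r2 was shared between Langerhans-like cells, fibroblast-like cells and basal epidermis. Over 22 clusters with at least 20 cells in each library, the control profile of each of the 8 genes other than Il1rl1 correlated with its induced profile at r from 0.82 (Tslp) to 0.95 (Il1b). These correlations describe clusters of the same 2 libraries and carry no test.

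**Figure D1:**
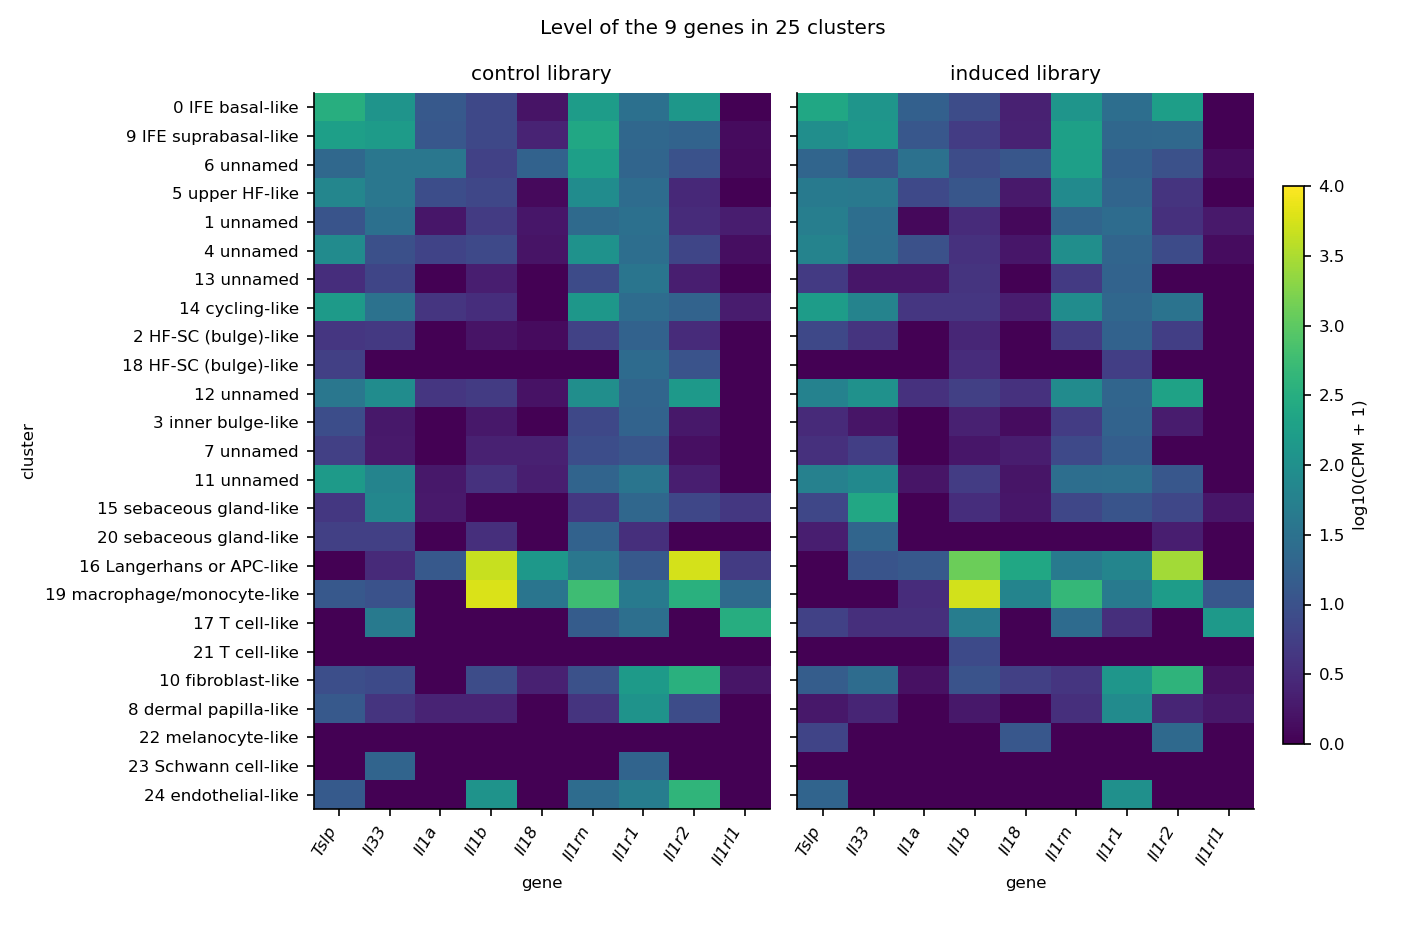
Level of each of the 9 genes (columns) in each of 25 clusters (rows), as log10(CPM + 1), in the control library (left) and the induced library (right); clusters with under 30 cells in a library are shown too. Il1b is highest in clusters 19 and 16, Il1r2 in cluster 16 (5618 CPM in the control) and Il1rl1 in cluster 17 (304 CPM in the control).

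Of 153 pairs of a gene and a compared cluster, 78 had at least 20 UMIs. In 11 of these 78 (14.1%) the ratio was past the fold, 6 higher and 5 lower in the induced library. Over all genes and the same 17 clusters, 5.48% of pairs were past it in either direction. In each of the 11 pairs the 5 highest cells held at least 50% of the UMIs in at least 1 library, and 6 of the 11 had at least 100 UMIs. Thus few cells carried much of the sum in at least 1 library, but not always in both. Without the 5 highest cells the log2 ratio stayed past the fold for Il33 in clusters 15 (2.95) and 6 (−5.23) and Il1b in cluster 16 (−2.44). It fell under the fold for Il33 in cluster 4 (0.55) and Tslp in clusters 1 (0.72) and 11 (−0.92). The other pairs had too few UMIs left.

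**Figure D2:**
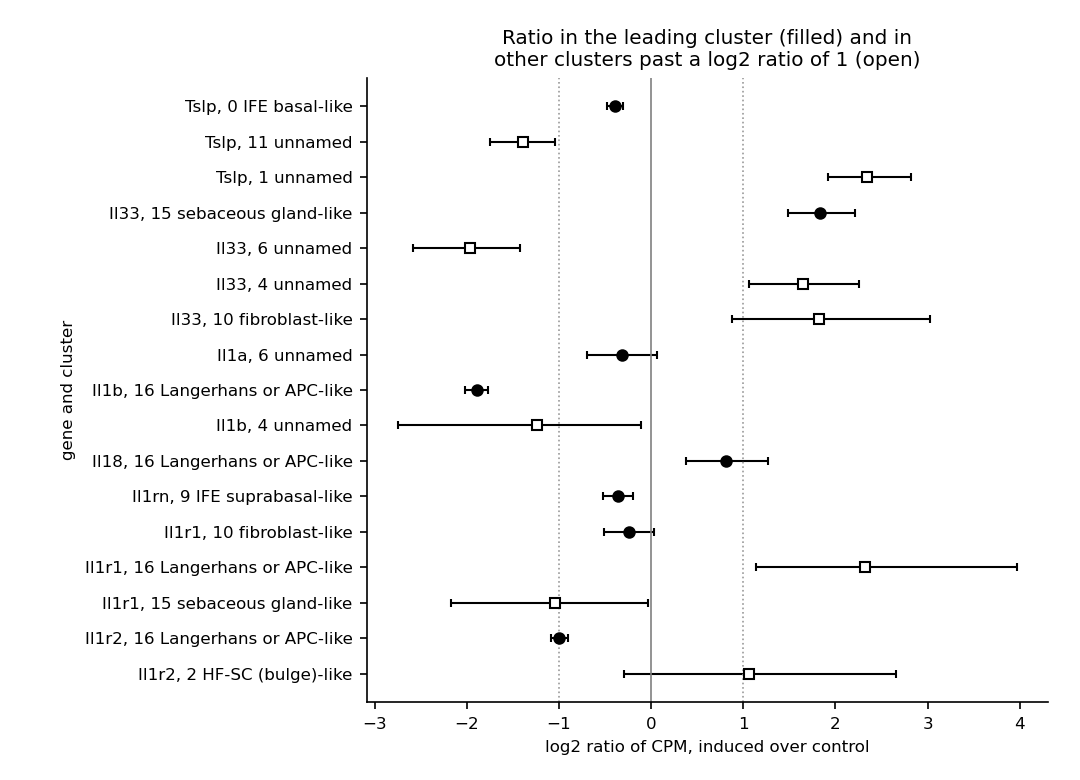
Log2 ratio of CPM, induced over control, for each gene in its leading cluster (filled circles) and in other compared clusters where it was past the fold (open squares). Bars are exact 95% intervals for counting error, dotted lines mark a log2 ratio of 1 in size, and among leading clusters only Il33 (1.83) and Il1b (−1.89) lie past them.

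Tslp was highest in cluster 0, the interfollicular epidermis (IFE) basal-like cells, which held 54.8% of all its UMIs. Its level there was 318 CPM (306 to 329) in the control and 242 CPM (230 to 255) in the induced library, a log2 ratio of −0.39 (−0.48 to −0.30). The induced value was lower beyond counting error but under the fold. Markers of these cells differed too, with log2 ratios of 0.46 for Ly6a, −0.36 for Igfbp3 and −0.58 for Epgn. Krt14, Krt5, Thbs1 and Trp63 had log2 ratios between −0.10 and 0.05. The part of these markers in the values of the members in cluster 0 was not tested. Tslp came from few cells: the median basal-like cell held 1 UMI in the control and 0 in the induced library, while the highest cells held 333 and 407. The 5 highest cells supplied 33.2% and 54.8% of the basal-like UMIs. After thinning every cell to 5000 UMIs, 31.9% of control and 29.9% of induced basal-like cells had a Tslp UMI, and the intervals overlapped (28.1 to 35.9% and 25.1 to 35.0%). Unthinned, the shares were 52.9% and 49.9%. The basal-like clusters had median depths of 16583 and 17405 UMIs. The T cell-like cluster 21, taken as background, had a Tslp UMI in 0 of 9 control and 0 of 16 induced cells of that depth, which allows shares of up to 33.3% and 18.8%. The control limit lies above the control share, so these few cells cannot set a background level for it.

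Away from the basal layer, Tslp differed in both directions. In the IFE suprabasal-like cells it was 183 CPM in the control and 92.6 CPM in the induced library, a log2 ratio of −0.98 (−1.19 to −0.77). A single control cell held 201 of the 608 control UMIs there, against a highest induced cell of 25, and the thinned shares of cells with a UMI were 42 of 175 in the control and 36 of 141 in the induced library (17.9 to 31.0% and 18.6 to 33.6%). In cluster 11, an unnamed epithelial cluster led by Krt18 and Krt8, it was 150 and 57.0 CPM, with a log2 ratio of −1.39 (−1.75 to −1.05), and 5 cells held 65.8% and 54.2% of the UMIs. In cluster 1, an unnamed cluster led by Saa1 and Serpina3g, it was 9.77 CPM in the control and 49.97 CPM in the induced library, with a log2 ratio of 2.34 (1.91 to 2.82). Neither of the last 2 differences stayed past the fold without the 5 highest cells of each library, where the log2 ratios were −0.92 in cluster 11 and 0.72 in cluster 1. In cluster 1 the 5 highest cells held 25% of the control and 75.9% of the induced UMIs. Over the 11 compared clusters with enough UMIs, the interval lay below 0 in 5, above 0 in 2 and across 0 in 4. The share of all genes whose interval leaves out 0 was not taken, so this count has no background beside it.

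Il33, a nuclear cytokine released on damage, had its highest mean over the 2 libraries in the sebaceous gland-like cells of cluster 15. That rank came from the induced library. In the control, cluster 15 was below IFE suprabasal-like cells (154 CPM), IFE basal-like cells (116 CPM) and cluster 12 (88.2 CPM). The Il33 level in cluster 15 was 70.1 CPM (55.7 to 87.2) in 66 control cells and 251 CPM (225 to 280) in 71 induced cells. This is 3.58-fold higher in the induced library (log2 ratio 1.83, 1.49 to 2.21). The median cell held 0 UMIs in the control and 3 in the induced library, and the 5 highest cells held 67.9% of the control and 31.2% of the induced UMIs. Thinned to 5000 UMIs, 13 of 64 control cells (11.3 to 32.2%) and 42 of 70 induced cells (47.6 to 71.5%) had an Il33 UMI. Unthinned shares were 31.8% and 85.9%, at median depths of 16859.5 and 18129 UMIs. The T cell-like cluster 21, as background, had Il33 in 0 of 9 control and 0 of 16 induced thinned cells, with the limits given for Tslp, of which the control one again lies above the control share. Without the 5 highest cells of each library the log2 ratio was 2.95, and it was 1.11 when sebaceous cells were chosen by their own marker UMIs instead of by cluster. Cluster 20, also sebaceous gland-like, had 21 control and 39 induced cells and was not compared. Its median cell held 0 Il33 UMIs in both libraries, and its highest cells held 1 and 5. Thinned, 1 of 15 control and 4 of 31 induced cells there had an Il33 UMI. Of the 8 sebaceous markers, cluster 20 raised 8 at least 2-fold and cluster 15 raised 4. Sebaceous gland-like cells without a number are those of cluster 15.

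All 8 sebaceous markers were detected in both libraries of cluster 15, and together they came to 2446 CPM in the control and 2565 CPM in the induced library. That sum rests on Mgst1, at 1307 and 1664 CPM, while the other 7 markers were at lower values in the induced library, with log2 ratios from −0.18 (Scd1) to −2.32 (Cidea). Among these the lipid-droplet gene Cidea was lower in the induced library (81.4 and 15.99 CPM), as was the fatty acid elongase Elovl6 (57.2 and 23.6 CPM). IFE basal markers came to 10330 and 8323 CPM in this cluster, and HF-SC markers to 629 and 1332 CPM. Neither of these lists had a marker raised at least 2-fold there over the other clusters. The heat-shock genes Hspa1a (165 and 639 CPM) and Hspa1b (79.7 and 336 CPM), from a list of dissociation-response genes chosen after values were seen, were higher in the induced library. The part of these genes in the Il33 result was not tested. The receptor gene Il1r1 was lower in the same cells, at 20.8 CPM in the control and 9.90 CPM in the induced library (log2 ratio −1.05, −2.17 to −0.04), on 24 and 13 UMIs, of which 5 cells held 54.2% and 69.2%. Both members with enough UMIs in cluster 15 were thus past the fold, where 7.76% of all genes were.

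The epidermal levels of Il33 were close in the 2 libraries. In IFE basal-like cells, which held 37.6% of its UMIs, it was 116 CPM in the control and 121 CPM in the induced library (log2 ratio 0.06, −0.07 to 0.20). In IFE suprabasal-like cells it was 154 and 130 CPM (log2 ratio −0.24, −0.44 to −0.05). Il33 was past the fold in 3 other clusters, each time through few cells. It was higher in cluster 4, led by Ntrk2 and Fst, at 8.34 and 26.3 CPM (log2 ratio 1.65, and 0.55 without the 5 highest cells, which held 46.2% and 75.4% of the UMIs). It was higher in fibroblast-like cells at 6.81 and 25.0 CPM, where 5 cells held 100% of the control and 91.5% of the induced UMIs. It was lower in cluster 6 at 37.1 and 9.42 CPM, where 5 cells held 85.2% of the control and 100% of the induced UMIs.

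Il1a, the ligand that keratinocytes hold ready in the cell, was highest in cluster 6. That cluster was led by Flg2, Lor and Cnfn, genes of the cornifying layers, and stayed unnamed, with markers of both the IFE suprabasal and the upper hair follicle lists. Lor there was 2358 CPM in the control and 682 CPM in the induced library, Flg was 141 and 5.30 CPM, and Mt4 had 21 and 9 UMIs. Krt1 was higher in the induced library (67.2 and 164 CPM), while Krt10, Krtdap and Sbsn had log2 ratios between −0.16 and −0.13. Upper follicle markers had log2 ratios from −0.39 (Klk10) to 0.20 (Cst6). The part of these markers in the values of cluster 6 was not tested. Il1a was 37.4 CPM (31.5 to 44.1) in the control and 30.01 CPM (24.5 to 36.4) in the induced library, with a log2 ratio of −0.32 (−0.70 to 0.06) that did not differ beyond counting error. The 5 highest cells held 29.4% of the control and 65.7% of the induced UMIs, and without them the log2 ratio was −1.37. The thinned share of cells with an Il1a UMI was 11.4% (7.53 to 16.4%) in the control and 5.61% (2.83 to 9.82%) in the induced library, and the intervals overlapped. Unthinned shares were 24.3% and 13.04%. Next, among clusters with at least 20 UMIs, came IFE basal-like cells, at 12.1 and 15.97 CPM, and IFE suprabasal-like cells, at 11.1 and 11.3 CPM. The basal-like and suprabasal-like levels did not differ from each other beyond counting error in either library.

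Il1b, the inflammatory ligand of myeloid cells, was concentrated in antigen-presenting cells, and its level differed widely in 1 of the 2 clusters that held most of it. In the Langerhans or antigen-presenting-like cells of cluster 16 it was 4675 CPM (4488 to 4869) in 52 control cells and 1258 CPM (1162 to 1361) in 46 induced cells, which is 3.72-fold lower (log2 ratio −1.89, −2.02 to −1.77). The 5 highest cells held 37.3% of the control and 56.5% of the induced UMIs. Most control cells held it, with quartiles of 2.5, 35 and 59.5 UMIs per cell. The induced quartiles were 0, 1 and 15.5 UMIs. Cells with at least 10 Il1b UMIs numbered 36 of 52 in the control and 14 of 46 in the induced library. Thinned to 5000 UMIs, the share of cells with an Il1b UMI was 75.5% (61.1 to 86.7%) in the control and 48.9% (33.7 to 64.2%) in the induced library, and these intervals overlapped. Unthinned shares were 76.9% and 58.7%. In the hair follicle stem cell (HF-SC)-like cells of cluster 2, taken as background, the thinned share was 0.649% in the control and 0.709% in the induced library, at median depths of 9946 and 10289 UMIs.

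The defining markers of cluster 16 were high in both libraries. Summed over 6 markers they came to 126766 CPM in the control and 118981 CPM in the induced library, and the Langerhans lectin Cd207 was 17773 and 13772 CPM. Median depth was 8951.5 and 9592.5 UMIs, and median mitochondrial content was 5.68% and 5.81%. T cell markers were at 82.1 CPM in the control and 4.01 CPM in the induced library, macrophage markers at 1229 and 1559 CPM, and the complement gene C1qb had 3 and 57 UMIs. Neutrophil markers were at 0 in both libraries. Dissociation-response genes, chosen after values were seen, summed to 3226 and 2725 CPM. The part of these in the Il1b result was not tested. With only cells under 5% mitochondrial UMIs, which left 11 cells in each library, the Il1b log2 ratio was −3.65.

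The other cluster rich in Il1b was cluster 19, the macrophage or monocyte-like cells, with 28 control and 33 induced cells and therefore under the size set for comparison. Il1b was 5965 CPM (5736 to 6201) in the control and 5360 CPM (5147 to 5580) in the induced library. The medians were 53.5 and 33 UMIs per cell, and 5 cells held 54.4% and 66.3% of the UMIs. Together, clusters 19 and 16 held 59.2% and 35.5% of all Il1b UMIs. Elsewhere the highest level in a compared cluster was 10.6 CPM. In cluster 4, Il1b was past the fold on 31 control and 7 induced UMIs (log2 ratio −1.24, −2.74 to −0.11), and 5 cells held 77.4% and 71.4% of them.

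**Figure D3:**
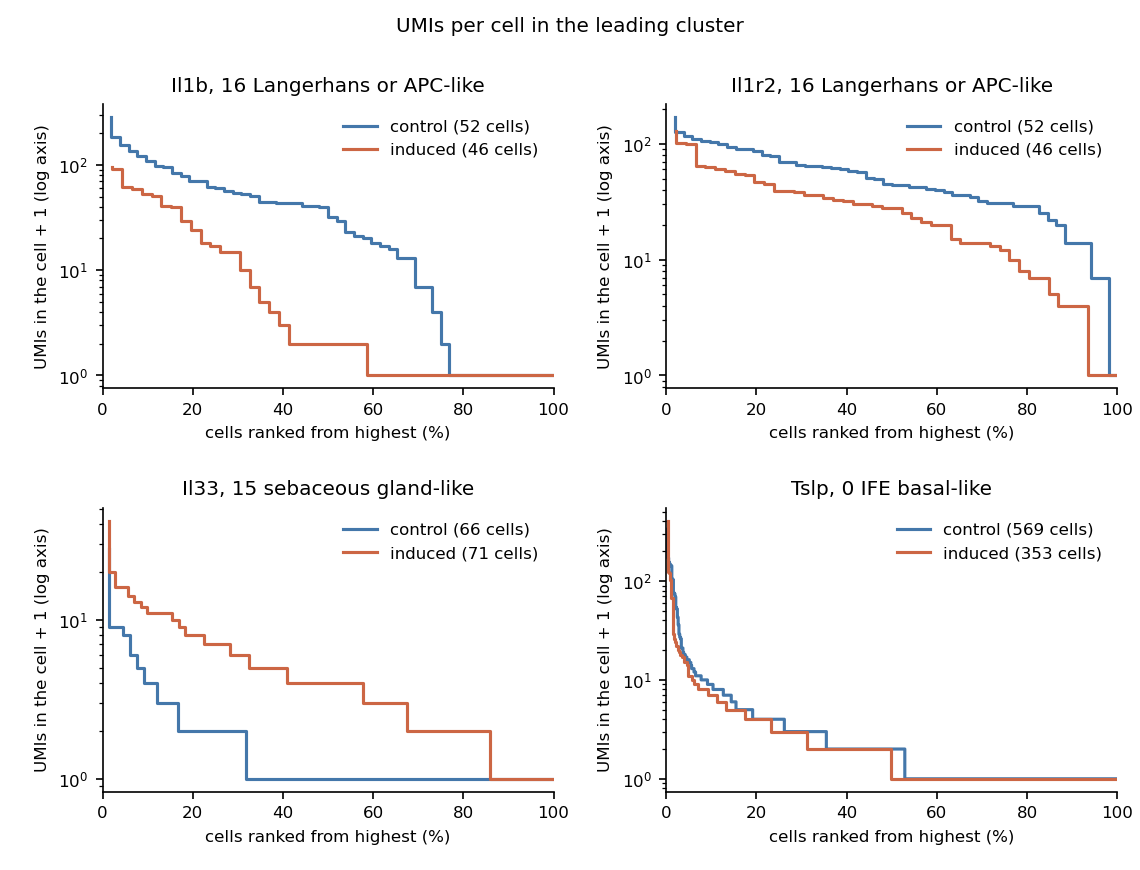
UMIs in each cell plus 1 (log axis) against the rank of the cell from the highest, as a percent of cells, for Il1b and Il1r2 in cluster 16, Il33 in cluster 15 and Tslp in cluster 0; lines are the control (blue) and induced (orange) libraries. The induced line lies below the control for Il1b and Il1r2 and above it for Il33, while Tslp falls steeply in both, with a highest cell of 333 UMIs in the control and 407 in the induced library.

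Il18, a cytokine that inflammasome cleavage activates, was also highest in cluster 16. It was 134 CPM (104 to 170) in the control and 236 CPM (196 to 283) in the induced library, with a log2 ratio of 0.81 (0.37 to 1.27). The direction was opposite to that of Il1b in the same cells and under the fold. It did not hold among the 11 cells per library with under 5% mitochondrial UMIs, where the log2 ratio was −0.60. The thinned share of cells with an Il18 UMI was 38.8% (25.2 to 53.8%) in the control and 53.3% (37.9 to 68.3%) in the induced library, with overlapping intervals. Unthinned, 26 of 52 control and 28 of 46 induced cells had one. Il18 was next highest among compared clusters in the cornifying cluster 6, at 17.3 and 10.6 CPM (log2 ratio −0.70, −1.33 to −0.10), where 5 cells held 78.8% and 66.7% of the UMIs.

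Il1rn, the receptor antagonist, was found throughout the epidermal clusters. Its level was higher still in the macrophage or monocyte-like cluster 19, which was under the size set for comparison and is given under other observations. In IFE suprabasal-like cells, its leading cluster, it was 242 CPM (225 to 259) in the control and 188 CPM (173 to 204.96) in the induced library, a log2 ratio of −0.36 (−0.52 to −0.20). The median cell held 3 UMIs in the control and 2 in the induced library. In cluster 6 it was 177 and 182 CPM (log2 ratio 0.03, −0.13 to 0.19), and in IFE basal-like cells 159 and 121 CPM (log2 ratio −0.39, −0.52 to −0.26). Cluster 6 was below the suprabasal-like cells beyond counting error in the control, but their intervals overlapped in the induced library. In the 13 compared clusters with enough UMIs, the interval lay below 0 in 3, above 0 in 0 and across 0 in 10. As for Tslp, no share over all genes stands beside this count. No cluster was past the fold. Thinned shares in suprabasal-like cells were 56.6% (48.9 to 64.0%) and 46.8% (38.4 to 55.4%), against unthinned shares of 81.0% and 81.6%. Markers of these cells had log2 ratios of 0.26 (Krt1), 0.43 (Krt10), 0.56 (Krtdap), 0.74 (Sbsn) and −0.08 (Mt4), and Lor had 36 and 15 UMIs. The part of these markers in the values of the members there was not tested.

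Il1a can be set against its antagonist in the same cells. In IFE basal-like cells there were 13.2 Il1rn UMIs per Il1a UMI (10.9 to 16.1) in the control and 7.602 (6.15 to 9.48) in the induced library, and these intervals did not overlap. In cluster 6 there were 4.74 (3.95 to 5.72) and 6.05 (4.90 to 7.53), which overlapped. For Il1b the balance was the other way in antigen-presenting cells. Cluster 16 had 123 Il1b UMIs per Il1rn UMI (78.6 to 204.6) in the control and 29.9 (19.4 to 48.7) in the induced library. Cluster 19 had 10.4 (9.12 to 11.9) and 11.6 (10.0 to 13.4). These are ratios of UMIs, not scaled for transcript length, and are compared between cells rather than read as amounts.

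Il1r1, the signalling receptor for IL-1α and IL-1β, was highest in the dermis. In fibroblast-like cells it was 149 CPM (130 to 170) in the control and 127 CPM (111 to 144) in the induced library (log2 ratio −0.24, −0.51 to 0.04). In dermal papilla-like cells it was 113 CPM (89.1 to 142) and 85.1 CPM (69.6 to 103) (log2 ratio −0.42, −0.85 to 0.03). The 2 dermal clusters overlapped in the control but not in the induced library. It had enough UMIs in all 17 compared clusters, and the interval of the ratio included 0 in 13 of them, lay below 0 in 3 and above 0 in 1. This is the transcript that carries the miR-205 seed match. In IFE basal-like cells the log2 ratio was −0.15 (−0.44 to 0.13). The 3 clusters with the interval below 0 were the sebaceous gland-like cells, cluster 13 and cluster 4. Il1r1 was 20.8 CPM in the control and 9.90 CPM in the induced library in the first. It was 34.7 and 17.6 CPM in cluster 13, and 26.7 and 19.03 CPM in cluster 4. The level of the Krt14-driven transactivator was not measured, and the part of the seed match in these values was not tested.

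The exception on the higher side was cluster 16, where Il1r1 was 12.01 CPM (4.41 to 26.1) in the control and 64.1 CPM (43.9 to 90.5) in the induced library, a log2 ratio of 2.32 (1.14 to 3.97) on 6 and 32 UMIs, of which 5 cells held 83.3% and 53.1%. The thinned share of cells with a UMI was 2.04% (0.0517 to 10.9%) in the control and 28.9% (16.4 to 44.3%) in the induced library, against 11.5% and 37.0% unthinned. No control cell held more than 1 UMI, and the highest induced cell held 7. Melanocyte-like cells, meant as background, had an Il1r1 UMI in 0 of 3 control and 0 of 13 induced thinned cells, which allows up to 100% and 23.1% and so sets no background for the control share. With Il1b, 2 of the 5 members that had enough UMIs in cluster 16 were past the fold, where 10.4% of all genes were.

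Il1r2, the decoy receptor, was highest in cluster 16, at 5618 CPM (5412 to 5830) in the control and 2815 CPM (2670 to 2966) in the induced library. The log2 ratio of −0.997 (−1.09 to −0.90) was just under the fold. The quartiles were 30, 43.5 and 70.25 UMIs per cell in the control and 11.25, 27 and 38 UMIs in the induced library. Unlike Il1b, the decoy was present in nearly every cell of the cluster, with thinned shares of 100% (92.7 to 100%) and 88.9% (75.9 to 96.3%). Unthinned shares were 98.1% and 93.5%. Without the 5 highest cells of each library the log2 ratio was −1.20, past the fold.

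For Il1r2, too, counts of intervals have no share over all genes beside them. Of the 10 compared clusters with enough Il1r2 UMIs, the interval lay below 0 in cluster 16 alone, above 0 in 4 and across 0 in 5. In fibroblast-like cells it was 351 CPM (321 to 382) and 394 CPM (367 to 424), a log2 ratio of 0.17 (0.01 to 0.33). In IFE basal-like cells it was 129 CPM (122 to 137) in the control and 173 CPM (162 to 183) in the induced library, a log2 ratio of 0.42 (0.30 to 0.54). The 5 highest basal-like cells held 4.95% and 5.94% of these UMIs, so the difference did not rest on them. The thinned share of basal-like cells with an Il1r2 UMI was 37.4% (33.4 to 41.6%) in the control and 49.4% (44.0 to 54.8%) in the induced library, and unthinned it was 71.9% and 79.6%. In cluster 12, led by Ascl2 and Fzd10, it was 138 and 197 CPM (log2 ratio 0.52, 0.27 to 0.77). In the HF-SC-like cells of cluster 2 it was past the fold on 7 and 14 UMIs, of which 5 cells held 100% and 92.9%, but the interval held 0 (log2 ratio 1.06, −0.30 to 2.66). The fibroblast-like cells were to serve as background for Il1r2 but expressed it, with a thinned share of 56.6% in the control. Hence dermal papilla-like cells are given instead, a choice made after values were seen, at 6.00% in the control and 1.44% in the induced library.

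**Figure D4:**
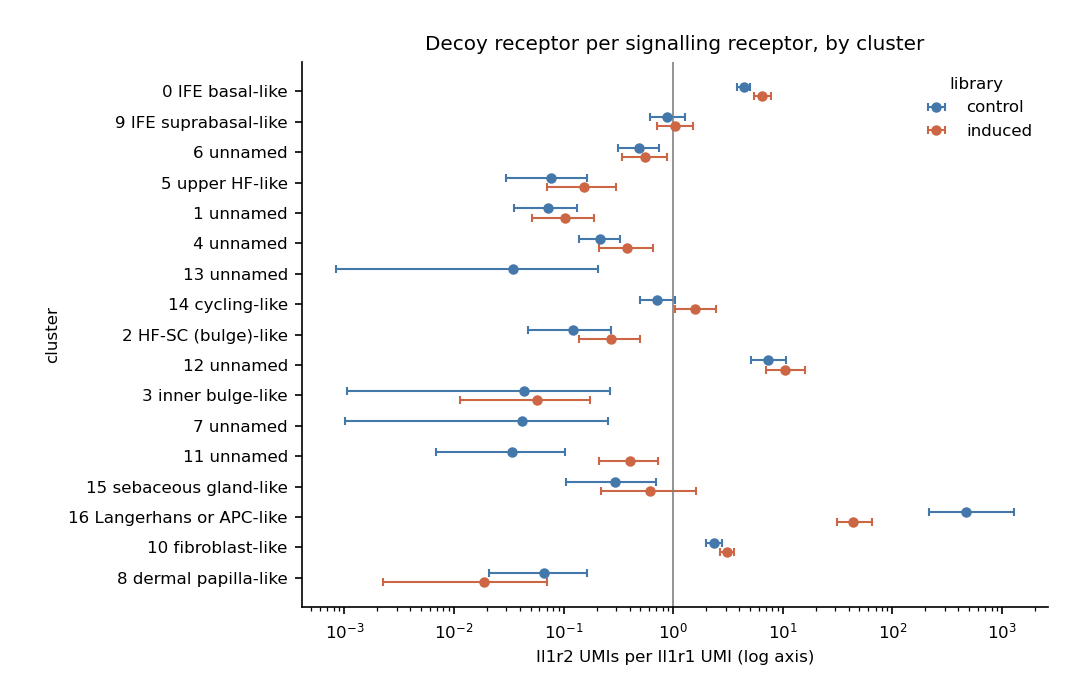
Il1r2 UMIs per Il1r1 UMI (log axis) in compared clusters, with exact 95% intervals, for the control (blue) and induced (orange) libraries; the line marks equal UMI counts, and clusters 7 and 13 have no induced point because no Il1r2 UMI was counted. Cluster 16 stands far to the right, at 468 in the control and 43.9 in the induced library.

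The ratio of decoy to signalling receptor divided the skin into groups of cells. In both libraries Il1r2 UMIs outnumbered Il1r1 UMIs in IFE basal-like cells, fibroblast-like cells and clusters 12 and 16. In HF-SC-like cells there were 0.123 Il1r2 UMIs per Il1r1 UMI (0.0473 to 0.270) in the control and 0.269 (0.138 to 0.493) in the induced library. In IFE basal-like cells the ratio was 4.39 (3.85 to 5.01) and 6.50 (5.51 to 7.72), and the induced value was higher beyond counting error. In fibroblast-like cells it was 2.35 (2.00 to 2.77) and 3.11 (2.69 to 3.62), whose intervals overlapped slightly. In cluster 16 it was 468 (215 to 1276) in the control and 43.9 (31.0 to 64.4) in the induced library.

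Il1rl1, the receptor for IL-33, was rare, with 52 control and 73 induced UMIs over all kept cells. No compared cluster had 20 UMIs. Of the 125 UMIs, 64.8% were in the T cell-like cluster 17, which had 17 control and 77 induced cells and was not compared. There, 22 UMIs came from 4 control cells and 59 UMIs from 10 induced cells. The level was 304 CPM (191 to 461) in the control and 144 CPM (109 to 185) in the induced library. Among the 10 induced cells, 8 held a UMI of the T cell gene Cd3e, 7 of Gata3, 9 of Icos and 4 of the regulatory T cell gene Foxp3. Among the 4 control cells the numbers were 2, 2, 2 and 0. The 67 induced cells of the cluster without an Il1rl1 UMI held Cd3e in 46, Gata3 in 29, Icos in 50 and Foxp3 in 2, and the 13 such control cells in 8, 7, 8 and 0. These cells were picked by their Il1rl1 UMIs, so this is a description. Mast cells also use this receptor, and 6 of 6 mast cell markers were detected in cluster 17, but its 2 control and 3 induced cells with mast markers held 0 Il1rl1 UMIs at 1667 and 2145 UMIs in sum. HF-SC-like cells, as background, held Il1rl1 in 0 of 308 control and 0 of 282 induced thinned cells, which allows up to 0.974% and 1.06%.

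The wider IL-1 pathway was read from 5 lists of genes: other ligands, other receptors and binding proteins, signalling, processing and release, and response. In IFE basal-like cells none of 15 signalling genes with enough UMIs was past the fold, 3 of 10 response genes were lower, and 0 of 7 members were past it, where 4.32% of all genes were. The chemokine genes Cxcl1 (39.6 and 14.5 CPM, log2 ratio −1.44) and Ccl20 (79.3 and 18.1 CPM, −2.13) and the cytokine gene Il6 (13.96 and 4.24 CPM, −1.70) were the 3. For Ccl20, 5 cells held 82.9% of the control UMIs, and for Il6 76.7%. The median log2 ratio was −0.02 over the response list and 0.02 over all genes tested in these cells.

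In IFE suprabasal-like cells 0 of 7 members were past the fold, where 5.19% of all genes were. Of 8 response genes, 2 were lower and 1 was higher: Cxcl1 was 15.6 CPM in the control and 3.17 CPM in the induced library (log2 ratio −2.24), and Ccl20 was 15.6 CPM in the control and 57.0 CPM in the induced library (1.86). The other lower gene, Il6, had 35 and 12 UMIs and is named after its values were seen. In cluster 6, Il33 was the 1 of 8 members past the fold, where 4.68% of all genes were. There the IL-36 receptor antagonist Il1f5 was 128 and 56.5 CPM (log2 ratio −1.18, −1.43 to −0.94), and Nlrp10, of the inflammasome gene family, was 13.1 and 5.00 CPM (−1.36), with 5 cells holding 100% of its control UMIs. In fibroblast-like cells Il33 was the 1 of 5 members past the fold, where 6.64% of all genes were. Ccl20 there was 2 UMIs in the control and 210 in the induced library, and 5 cells held 100% of both.

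In sebaceous gland-like cells all 7 response genes with enough UMIs were below 0, of which Cxcl1 was past the fold at 1263 and 478 CPM (log2 ratio −1.40, −1.54 to −1.27). The median log2 ratio was −0.39 over the response list and −0.05 over all genes. In cluster 16, where Il1b was lower, 2 of 7 response genes and 1 of 5 processing genes were lower past the fold and 1 of 5 other receptors was higher, against 10.4% of all genes in either direction. The receptor was Il1rl2, of the IL-36 receptor, named after its values were seen, at 12.01 and 28.05 CPM on 6 and 14 UMIs, and its interval held 0 (log2 ratio 1.16, −0.25 to 2.89). The chemokine Cxcl2 was 1301 and 397 CPM (log2 ratio −1.71, −1.95 to −1.48), with 64.3% and 75.8% of its UMIs in 5 cells. Cxcl1 was 100 and 6.01 CPM (−3.85), with 96.0% of the control UMIs in 5 cells. The inflammasome sensor Nlrp3 was 134 and 62.1 CPM (−1.10, −1.77 to −0.48). None of 7 signalling genes there was past the fold, and their median log2 ratio was 0.02.

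The genes with the most similar profile over 22 clusters, by the smaller of the 2 libraries' correlations, followed the cells that held each gene. For Il1b they were Il7r (r = 0.96 in the control and 0.95 in the induced library), Adgre1 and Tyrobp. For Il18 they were H2-Eb1 (0.87 and 0.87) and Ccl22, and for Il1r2 they were Slc16a3 (0.88 and 0.80), Antxr2 and Camk1d. Il33 was nearest to Clca3a2 (0.91 and 0.87), Tcim and Hmgn1, and Tslp to Sgms1 (0.85 and 0.83), Serpinb2 and Il22ra2. Il1a was nearest to Cyp3a13 (0.84 and 0.83), Gramd3 and Sdcbp2, Il1rn to Plbd1 (0.83 and 0.84), Gm15987 and Irf5, and Il1r1 to Isg20 (0.82 and 0.87), Nfkbia and Arfgap3. The points share libraries, depth and cell makeup, so these are descriptions. Il1rl1 had under 200 UMIs and was left out.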

How the data were processed

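The authors made the count tables with Cell Ranger (version 3.0.1 in the deposited file headers; build mm10 in the submitters' processing notes) and deposited raw counts. Cells were kept as in the study, with more than 200 and fewer than 5000 genes and under 10% mitochondrial UMIs, which left 50565114 control and 45364442 induced UMIs. Doublets were not removed; Scrublet in scanpy 1.11.5 marked 4 barcodes per library by its automatic threshold, so an alternative left out the 165 control and 145 induced barcodes with the highest scores. Seurat 5.3.0 (R 4.3.3) integrated the libraries (2000 variable genes without 64 listed genes, 30 dimensions, resolution 0.8). A cluster was named, by a rule set after the data were seen, when it led all classes in marker fold and in markers among its top 10 genes, with at least 3 raised 2-fold and at least 50% of its list raised. Log2 ratios used a pseudocount of 0.5 UMIs. Shares carry Clopper-Pearson intervals, and where no cell had a UMI the printed limit is that of 3 counts. Seed matches used the longest annotated 3′ UTR per gene (NCBIM37); promoters came from RefSeq tables. Named genes were the 9 members, listed genes past the fold with at least 50 UMIs in leading clusters, and the 3 genes of most similar profile, of which 1 is not reported here. The members and lists were chosen with earlier results of these data known. On Poisson counts simulated from cluster 16 (4582 genes, log2 change of 1.5 in 199 genes), 92.5% of changed and 2.58% of unchanged genes were past the fold. The simulated counts held counting error only, with no spread between cells or mice, so 2.58% is not an error rate for the real libraries. In the real cluster 16, 10.4% of all genes were past the fold.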

Additional observations from a re-analysis of the deposited data

Results flagged for a closer look

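Tslp, Il33 and Il1r1 each differed past the fold in opposite directions in different clusters, from 1 control and 1 induced library, and the difference between clusters was not tested. For Tslp the log2 ratio was 2.34 (1.91 to 2.82) in cluster 1 and −1.39 (−1.75 to −1.05) in cluster 11. For Il33 it was 1.65 (1.07 to 2.26) in cluster 4, 1.82 (0.87 to 3.03) in fibroblast-like cells and 1.83 (1.49 to 2.21) in sebaceous gland-like cells, but −1.96 (−2.58 to −1.42) in cluster 6. For Il1r1 it was −1.05 (−2.17 to −0.04) in sebaceous gland-like cells and 2.32 (1.14 to 3.97) in Langerhans or antigen-presenting-like cells. In the sebaceous gland-like cells the median cell held 0 Il33 UMIs in the control and 3 in the induced library.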

How the results depend on the processing

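No paired analysis was possible because there was 1 library per group. Of 62 alternative values of the leading-cluster log2 ratios, 47 stayed within the main counting interval and 15 moved. Under 5% mitochondrial UMIs the ratio was −0.81 for Tslp, −3.65 for Il1b, −0.60 for Il18 and −1.40 for Il1r2. Without the 5 highest cells it was −0.94 for Tslp, 2.95 for Il33, −1.37 for Il1a, −2.44 for Il1b and −1.20 for Il1r2. With classes set by marker UMIs per cell it was −0.70 for Tslp, 1.11 for Il33, −1.44 for Il1b and −0.17 for Il1rn, and it reversed for Il1r2 in HF-SC-like cells (−0.19, against 1.06 on 21 UMIs). The mean over cells gave 1.35 for Il33, and leaving out likely doublets gave −0.86 for Il1r2. Apart from Il18 under 5% mitochondrial UMIs, no leading-cluster ratio changed sign. The cause of these shifts was not tested.

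Levels moved too. For Tslp in cluster 0 they were 335 CPM (control) and 191 CPM (induced) under 5% mitochondrial UMIs, and 184 and 113 CPM with marker classes. For Il33 in the induced cluster 15 they were 324 CPM, on 2 cells, and 153 CPM. For Il1b in cluster 16 the induced level was 384 CPM under 5%, and marker classes gave 4162 and 1535 CPM. For Il18 the values were 174 and 115 CPM under 5%, and 91.8 and 155 CPM with marker classes. For Il1r2 they were 4244 and 1612 CPM, and 3529 and 1746 CPM. Pairs of member and cluster past the fold numbered 11 of 78 (14.1%, where all genes gave 5.48%), against 6 at 100 UMIs or more and 39 with no minimum beyond 1 UMI. Other list genes gave 51 of 547 pairs (9.32%, where all genes gave 5.48%), against 18 of 343 (5.25%) at 100 UMIs or more. The share over all genes was taken at 20 UMIs only, so the counts at other minimums have no background beside them. Ratios with under 20 UMIs left, such as sebaceous Il33 under 5% mitochondrial UMIs, and marker classes for unnamed clusters could not be computed. With no minimum of cells, chosen after seeing the data, the leading cluster of Il1b and Il1rn was 19 and that of Il1rl1 was 17. Il1rl1, with 125 UMIs in all, allowed no ratio in a compared cluster.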

Other observations

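Clusters under 30 cells in a library held some high levels that enter no comparison. Il1r2 in the macrophage or monocyte-like cluster 19 was 343 CPM (290 to 403) in the control and 162 CPM (127 to 204) in the induced library, lower in the induced library as in cluster 16. Il1rn in the same cells was 573 CPM (504 to 650) and 464 CPM (403 to 532), with 74.0% and 74.3% of its UMIs in 5 cells, and the thinned share of cells with an Il1rn UMI was 68.0% (46.5 to 85.1%) and 36.7% (19.9 to 56.1%). Il18 there was 35.0 CPM (19.6 to 57.7) and 63.1 CPM (41.9 to 91.1). In the endothelial-like cluster 24, with 7 control and 14 induced cells, Il1r2 had 34 UMIs in the control, all in 1 cell, and 0 in the induced library.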
